A study of Mus musculus with 10 samples.

Results

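The 8 genes described here encode sensors of intracellular nucleic acids and the machinery of a cell death pathway coupled to one of them: Zbp1, Ripk3, Mlkl, Ddx58, Ifih1, Dhx58, Eif2ak2 and Adar. They were chosen by name and make up 8 of the 55385 mouse gene identifiers in the count table. All 8 passed the filter on low values (a mean of at least 5 CPM, read counts scaled to library size, over the 10 libraries), as did 11274 genes in all. Neutrophils were sorted as Tomato-positive cells from squamous cell carcinomas grafted onto CatchupIVM-red mice, a line in which a red fluorescent reporter is tied to the neutrophil gene Ly6g, and their RNA was sequenced in bulk. The grafted cells were either the parental control line with low Sox2 or cells with high Sox2 (Sox2Hi), a transcription factor of stem cells. Tumours were left untreated (naive) or the hosts received anti-PDL1 together with a CD40 agonist, used as immunotherapy. The stated question is whether high Sox2 in a tumour blunts how its neutrophils answer interferon.

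Libraries numbered 3 for the naive control graft, 2 for the treated control graft, 3 for naive Sox2Hi and 2 for treated Sox2Hi. Every host carried the CatchupIVM-red reporter, and the 2 treated groups received both agents, so neither agent can be read alone. The descriptions of the libraries also mark all 10 as C57 and those of the control graft as GFP, and explain neither mark. No group was free of tumour. The labels do not say whether libraries came from separate mice, so the p-values measure the spread between these libraries, which may in part be technical.

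Cells detect foreign or misplaced RNA through cytosolic helicases of the RIG-I family, which signal through the adaptor MAVS to switch on type I interferon, and through the kinase PKR, which halts translation by phosphorylating eIF2 alpha. ZBP1 recognises nucleic acids in the left-handed Z conformation and engages the kinase RIPK3, which phosphorylates MLKL, and MLKL then breaches the plasma membrane in the lytic cell death called necroptosis. The editing enzyme ADAR1 converts adenosine to inosine in double-stranded RNA and restrains these sensors, and most of these genes are themselves induced by interferon.

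Since interferon acts on such genes through short promoter elements, the promoter letters were searched for 3 of them, on both strands, in windows from 250 bases before to 50 bases after each start site (RefSeq, GRCm38.p6). The windows covered 6 of the 8 genes, with 8 windows among them because Adar has several starts. Zbp1 and Dhx58 had no entry. The interferon-stimulated response element was searched as GAAANNGAAA, which occurred in 3.44% of 32851 windows of that length. It occurred in Ddx58, Ifih1 and Eif2ak2. The shorter interferon regulatory factor element AANNGAAA, which every response element contains, occurred in 23.9% of windows and in the same 3 genes and Adar. The STAT element TTCNNNGAA, a palindrome, occurred in 8.3% of windows and in Eif2ak2 and Adar. Neither Ripk3 nor Mlkl had a match to any of the 3 in its window. A match is a description of the letters and not a bound site. A choice of the stretches, 1 per gene and a further one for Ddx58 with the core shared by several genes, is shown 5′ to 3′ along the gene, 30 bases each, with the matched letters in capitals and +1 as the start site.
Ddx58, chr4:40239804-40239833, minus strand, response element read on the opposite strand with its first base at +3: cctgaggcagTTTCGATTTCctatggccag
Ddx58, chr4:40239866-40239895, minus strand, regulatory factor element: tctaggttcagAAACGAAActggatccccg
Ifih1, chr2:62646206-62646235, minus strand, response element from +33: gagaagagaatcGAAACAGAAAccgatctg
Eif2ak2, chr17:78882535-78882564, minus strand, response element from +19: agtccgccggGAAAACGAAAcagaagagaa
Adar, chr3:89730736-89730765, plus strand, regulatory factor element from +30: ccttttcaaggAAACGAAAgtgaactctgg
The core AAACGAAA appeared in Ddx58, Eif2ak2 and Adar, while Ifih1 had GAAACAGAAA. Eif2ak2 held matches to all 3 elements.

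The libraries held 13815734 to 22986193 counts. Ly6g averaged 2.47 CPM in naive and 14.6 in treated control tumours, and 2.40 in naive and 8.06 in treated Sox2Hi tumours, and every one of the 10 neutrophil markers had reads in every library. Markers of macrophages and dendritic cells, T and NK cells, keratinocytes, fibroblasts and endothelium, B and plasma cells and mast cells were also present, and no marker was at 0 in all libraries of a group. Reads over 1420 olfactory and vomeronasal receptor genes, taken as silent, ran at 6.55 to 8.88 counts per kb of exon in naive and 2.51 to 2.81 in treated control tumours, and at 4.51 to 5.47 in naive and 5.51 to 6.07 in treated Sox2Hi tumours. Because these reads differed between groups, the scaling factors were set from the 11274 expressed genes (expressed-gene scaling). Factors from all 29648 genes kept by a count filter (all-gene scaling) moved the median fold change of the same genes by 0.55 on the log2 scale for treatment in control tumours and by -0.27 for treatment in Sox2Hi tumours. They moved it by 0.37 between the grafts when naive, by -0.45 when treated and by -0.82 in the interaction. Under all-gene scaling the 11270 expressed genes entering both sets had medians of 0.36 (treatment, control) and -0.18 (treatment, Sox2Hi). Their medians were 0.32 between naive grafts, -0.41 between treated grafts and -0.79 in the interaction. Shares of all genes under that scaling are over the 29648 genes. Sox2 in the sorted cells ran from 0.217 to 2.34 CPM and does not check the graft label, since the tumour cells were not profiled. At most 8 reads of the Y-linked gene Ddx3y were counted in 4 libraries and at least 1007 in the other 6, with both kinds in every group. In bulk RNA, fewer cells of a type and less RNA per cell cannot be told apart.

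In control tumours Zbp1, the helicase genes of the RIG-I family, Ripk3 and Adar rose with treatment. Zbp1 RNA rose 5.31-fold, Ripk3 3.06-fold, Ifih1 2.94-fold, Dhx58 2.45-fold and Ddx58 2.14-fold, and Adar rose by 1.14 on the log2 scale. Mlkl, which acts directly after Ripk3, went the other way, and Eif2ak2 did not pass the test. In all, 7 of the 8 genes passed, 6 higher and 1 lower, against 57.3% of all tested genes in either direction, 24.1% higher and 33.1% lower (edgeR adjusted p under 0.05). The median change of the 8 was 1.21 on the log2 scale, beside -0.18 over all genes. Under all-gene scaling 6 passed, all higher, where 34.0% of all genes passed, 18.7% higher and 15.3% lower. The 2 groups did not overlap in 7 of the 8 genes, beside 68.4% of all genes.

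**Figure D1:**
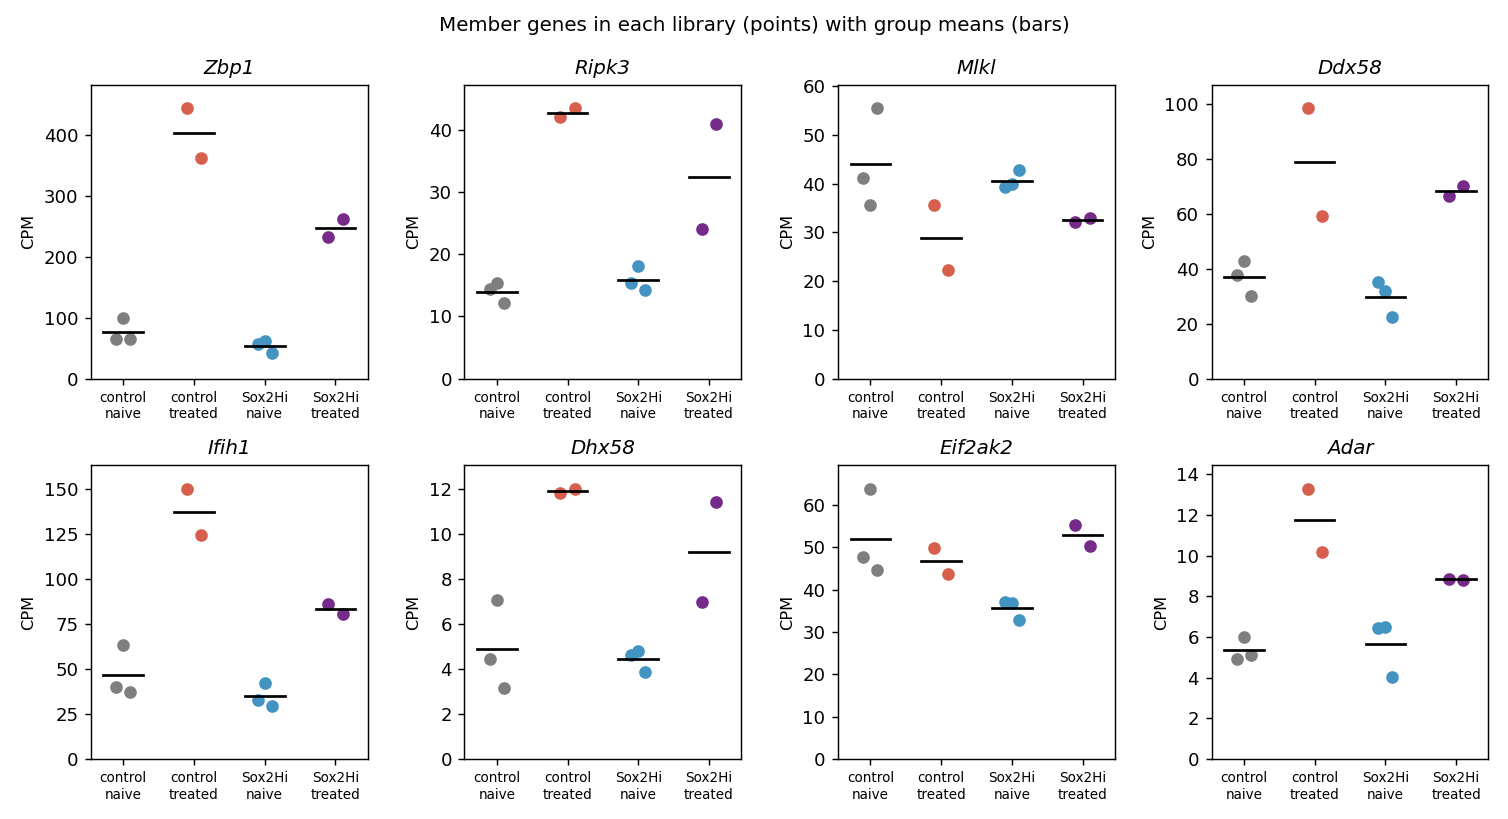
CPM (vertical axes, each from 0) of the 8 genes in each of the 10 libraries by group, with points for libraries and bars for group means. Zbp1 was at 362 and 443 CPM in control treated and 232 and 261 in Sox2Hi treated, against at most 98.7 in any naive library, while Mlkl was lower in the treated groups and Eif2ak2 was lowest in the Sox2Hi naive libraries.

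Zbp1 (ENSMUSG00000027514, chr2:173206612-173218923, minus strand, GRCm38) opens the pathway as the sensor of Z-form nucleic acid. It was measured at 64.3, 98.7 and 64.5 CPM in control naive libraries and at 443 and 362 in control treated. It was at 57.1, 61.7 and 41.8 CPM in Sox2Hi naive and at 232 and 261 in Sox2Hi treated. Each treated library lay above each naive one, and both treated control libraries lay above both treated Sox2Hi libraries. The log2 fold change with treatment was 2.41 in control tumours (SE 0.227, edgeR adjusted p 6.92e-05) and 2.21 in Sox2Hi tumours (SE 0.226, edgeR adjusted p 0.000357). Both calls held under all 11 alternatives and without each library in turn.

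Ripk3 (ENSMUSG00000022221, chr14:55784995-55788865, minus strand) encodes the kinase that ZBP1 recruits. It was at 14.4, 15.4 and 12.1 CPM in control naive and at 42.0 and 43.4 in control treated. It was at 15.3, 18.1 and 14.2 CPM in Sox2Hi naive and at 24.0 and 40.9 in Sox2Hi treated. The 2 Sox2Hi treated libraries thus stood far apart, one near the control treated level and the other closer to the naive ones. The log2 fold change was 1.61 in control tumours (SE 0.218, edgeR adjusted p 0.00032) and 1.03 in Sox2Hi tumours (SE 0.218, edgeR adjusted p 0.0117). Without Sox2Hi treated replicate 2 the rise in Sox2Hi tumours was 0.53 (edgeR adjusted p 0.202), and without Sox2Hi naive replicate 3 it was 0.95 (edgeR adjusted p 0.0543). Under all-gene scaling it was 0.76 (edgeR adjusted p 0.0769).

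Mlkl (ENSMUSG00000012519, chr8:111311797-111338177, minus strand) encodes the protein that perforates the membrane, and the pseudogene Gm45712 is annotated in an overlapping stretch. It was at 41.1, 35.6 and 55.4 CPM in control naive and at 35.5 and 22.3 in control treated. It was at 39.2, 39.8 and 42.7 CPM in Sox2Hi naive and at 32.1 and 32.9 in Sox2Hi treated. The treated libraries were below the naive ones in both grafts, by a narrow margin in control tumours. The log2 fold change was -0.61 in control tumours (SE 0.229, edgeR adjusted p 0.0407) and -0.32 in Sox2Hi tumours (SE 0.227, edgeR adjusted p 0.308, 95% interval -0.82 to 0.18). In a fit of only the 2 Sox2Hi groups the latter was -0.39 (edgeR adjusted p 0.0432). The call in control tumours rested on the setting: under all-gene scaling the value was -0.09 (edgeR adjusted p 0.792), with no filter on low counts 0.00, and without control treated replicate 2 it was -0.16 (edgeR adjusted p 0.591). With library totals only it was -1.16 (edgeR adjusted p 0.00194), and without control treated replicate 1 it was -0.87 (edgeR adjusted p 0.0186). The call was kept under 4 of the 11 alternatives and without 2 of the 10 libraries. Leaving out control naive replicate 3 gave -0.41 and leaving out Sox2Hi treated replicate 2 gave -0.48, and without control naive replicate 1, each Sox2Hi naive library or Sox2Hi treated replicate 1 the value was -0.66 or -0.61 with an edgeR adjusted p of 0.0516 to 0.0586. The highest value under any alternative was 0.00.

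The ratio of 2 genes within a library does not depend on any scaling factor, so it was used to compare these neighbours in the pathway. The 3 ratios described were chosen after the values of their genes were seen, so they are given as a description, with no test. In reads per kb of exon, the Ripk3 to Mlkl ratio was 0.351, 0.435 and 0.220 in naive control libraries against 1.19 and 1.96 in treated ones. It was 0.393, 0.458 and 0.334 in naive Sox2Hi libraries against 0.751 and 1.25 in treated ones. Every naive library thus held less Ripk3 than Mlkl RNA per kb, and 3 of the 4 treated libraries held more. The ratio was higher by 1.77 on the log2 scale over the 4 treated than over the 6 naive libraries. Leaving out any 1 library gave 1.54 to 2.00. The Zbp1 to Mlkl ratio was 1.02, 1.81 and 0.760 in naive and 8.14 and 10.6 in treated control libraries, and 0.950, 1.01 and 0.639 in naive and 4.73 and 5.18 in treated Sox2Hi libraries. It was higher by 2.80 on the log2 scale over the treated than over the naive libraries.

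**Figure D2:**
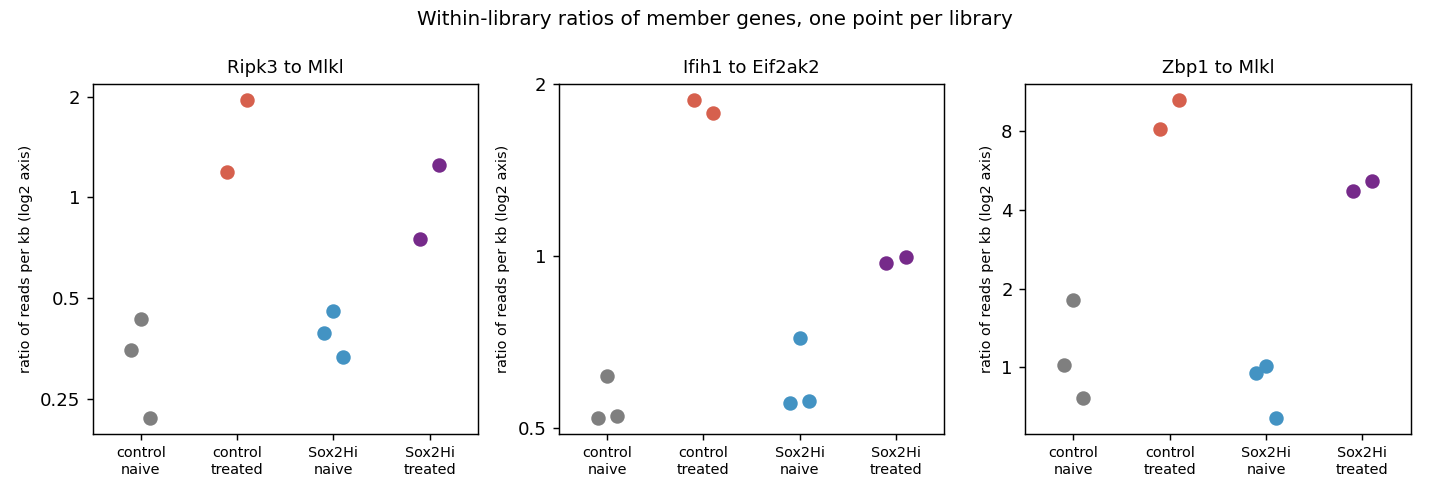
Within-library ratios of reads per kb of exon (log2 vertical axes) for Ripk3 to Mlkl, Ifih1 to Eif2ak2 and Zbp1 to Mlkl, with 1 point per library by group. In each panel the 4 treated libraries lie above the 6 naive ones, and in the Ifih1 to Eif2ak2 and Zbp1 to Mlkl panels the Sox2Hi treated points lie below the control treated points.

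The 3 helicases rose in both grafts. Ifih1 (ENSMUSG00000026896, chr2:62595798-62646255, minus strand) encodes MDA5, which binds long double-stranded RNA. It was at 39.7, 63.1 and 37.3 CPM in naive and 150 and 124 in treated control libraries. It was at 32.9, 42.2 and 29.2 CPM in naive and 85.9 and 80.2 in treated Sox2Hi libraries. Naive and treated libraries were fully separated in both grafts, and the control treated libraries were above the Sox2Hi treated ones. Ifih1 rose by 1.55 on the log2 scale in control tumours (SE 0.235, edgeR adjusted p 0.000538) and 1.26 in Sox2Hi tumours (SE 0.236, edgeR adjusted p 0.00718). Without Sox2Hi treated replicate 2 the latter was 1.24 (edgeR adjusted p 0.0779).

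Ddx58 (ENSMUSG00000040296, chr4:40203773-40239828, minus strand) encodes RIG-I, which recognises RNA ends that carry a 5′ triphosphate. It was at 37.7, 42.8 and 30.0 CPM in naive and 98.4 and 59.3 in treated control libraries. It was at 35.0, 31.8 and 22.4 CPM in naive and 66.4 and 70.0 in treated Sox2Hi libraries. The 2 control treated libraries differed more from each other than those of Sox2Hi treated, which lay between them. Ddx58 rose by 1.10 on the log2 scale in control tumours (SE 0.248, edgeR adjusted p 0.00358) and 1.20 in Sox2Hi tumours (SE 0.248, edgeR adjusted p 0.0106). With library totals as the only scaling the first was 0.55 (edgeR adjusted p 0.0607). The second was 0.83 with no low-count filter (edgeR adjusted p 0.0824) and 1.10 without Sox2Hi treated replicate 2 (edgeR adjusted p 0.126).

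Dhx58 (ENSMUSG00000017830, chr11:100694884-100704271, minus strand) encodes LGP2, the helicase of the family that lacks the signalling domains and tunes the other members. An antisense gene, Dhx58os, is annotated across it, and whether the counting used strand is not given in the sources used here, so reads of the pair cannot be told apart. It was at 4.42, 7.07 and 3.16 CPM in naive and 11.8 and 12.0 in treated control libraries. It was at 4.62, 4.80 and 3.84 CPM in naive and 6.95 and 11.4 in treated Sox2Hi libraries. The lower of the Sox2Hi treated libraries was slightly below the highest control naive library. The rate over silent genes would account for 31.7% of its reads in naive and 4.76% in treated control tumours, and for 18.8% in naive and 13.7% in treated Sox2Hi tumours. Dhx58 rose by 1.29 on the log2 scale in control tumours (SE 0.31, edgeR adjusted p 0.00489), a call kept under all 11 alternatives. It was 1.05 in Sox2Hi tumours (SE 0.311, edgeR adjusted p 0.0369), a call kept under 5 of 11 alternatives and without 3 of 10 libraries. With the silent-gene rate subtracted it was 1.13 (edgeR adjusted p 0.0695). There the value was 0.59 without Sox2Hi treated replicate 2 (edgeR adjusted p 0.36), 0.96 to 1.11 without any 1 Sox2Hi naive library (edgeR adjusted p 0.0654 to 0.125), 0.98 without either control treated library and 1.05 without control naive replicate 1.

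Eif2ak2 and Adar, which act on double-stranded RNA by phosphorylation and by editing, differed in their pattern. Eif2ak2 (ENSMUSG00000024079, chr17:78852564-78882573, minus strand), the gene of PKR, was at 47.8, 63.9 and 44.6 CPM in control naive and at 49.9 and 43.7 in control treated. It was at 37.2, 36.8 and 32.8 CPM in Sox2Hi naive and at 55.4 and 50.3 in Sox2Hi treated. The control groups overlapped, and the Sox2Hi naive libraries were the lowest of the series. The log2 fold change with treatment was -0.16 in control tumours (SE 0.178, edgeR adjusted p 0.468, 95% interval -0.55 to 0.24), with 0.40 under all-gene scaling and 0.52 with no low-count filter, so its sign there depended on the scaling. With library totals only it was -0.70 (edgeR adjusted p 0.00869). In Sox2Hi tumours Eif2ak2 rose by 0.57 (SE 0.175, edgeR adjusted p 0.0418), but the call was kept under only 3 of 11 alternatives and without 2 of 10 libraries, with values of 0.50 to 0.60 and edgeR adjusted p-values of 0.0608 to 0.194 without each of the other 8 (control naive replicate 1 and every control treated, Sox2Hi naive and Sox2Hi treated library).

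Adar (ENSMUSG00000027951, chr3:89715022-89753446, plus strand), whose stretch overlaps the annotated gene Chrnb2, was at 4.91, 6.02 and 5.12 CPM in naive and 13.3 and 10.2 in treated control libraries. It was at 6.44, 6.51 and 4.05 CPM in naive and 8.86 and 8.80 in treated Sox2Hi libraries. Its treated libraries were above its naive ones in each graft. Reads at the silent-gene rate would make up 70.0% and 12.1% of its counts in naive and treated control tumours and 36.5% and 35.1% in naive and treated Sox2Hi tumours, the highest shares among the 8 genes, and with that rate subtracted the rise in control tumours was 2.68 on the log2 scale. With treatment Adar rose by 1.14 on the log2 scale in control tumours (SE 0.234, edgeR adjusted p 0.00221), a call kept under all 11 alternatives. In Sox2Hi tumours it was 0.64 (SE 0.235, edgeR adjusted p 0.0716, 95% interval 0.12 to 1.16).

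MDA5 and PKR both bind double-stranded RNA, and their genes were also compared within libraries. The Ifih1 to Eif2ak2 ratio in reads per kb was 0.521, 0.618 and 0.524 in naive control libraries against 1.88 and 1.78 in treated ones. It was 0.553, 0.718 and 0.558 in naive Sox2Hi libraries against 0.971 and 0.998 in treated ones. Treatment thus took Ifih1 above Eif2ak2 per kb in both control libraries and to about the same level in both Sox2Hi libraries. The ratio was higher by 1.22 on the log2 scale over treated libraries, and 1.05 to 1.37 without any 1 library.

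In Sox2Hi tumours 6 of the 8 genes passed the test, all higher, against 21.6% of all genes in either direction, 15.0% higher and 6.57% lower (edgeR adjusted p under 0.05). Their median log2 fold change was 1.04, beside 0.09 over all genes. Under all-gene scaling 3 passed (Zbp1, Ddx58 and Ifih1), all higher, where 3.61% of all genes passed, 1.79% higher and 1.82% lower. Without Sox2Hi treated replicate 2 the count fell to 1 (Zbp1), and without Sox2Hi naive replicate 3 it fell to 3. All 8 genes had groups that did not overlap, beside 62.4% of all genes.

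**Figure D3:**
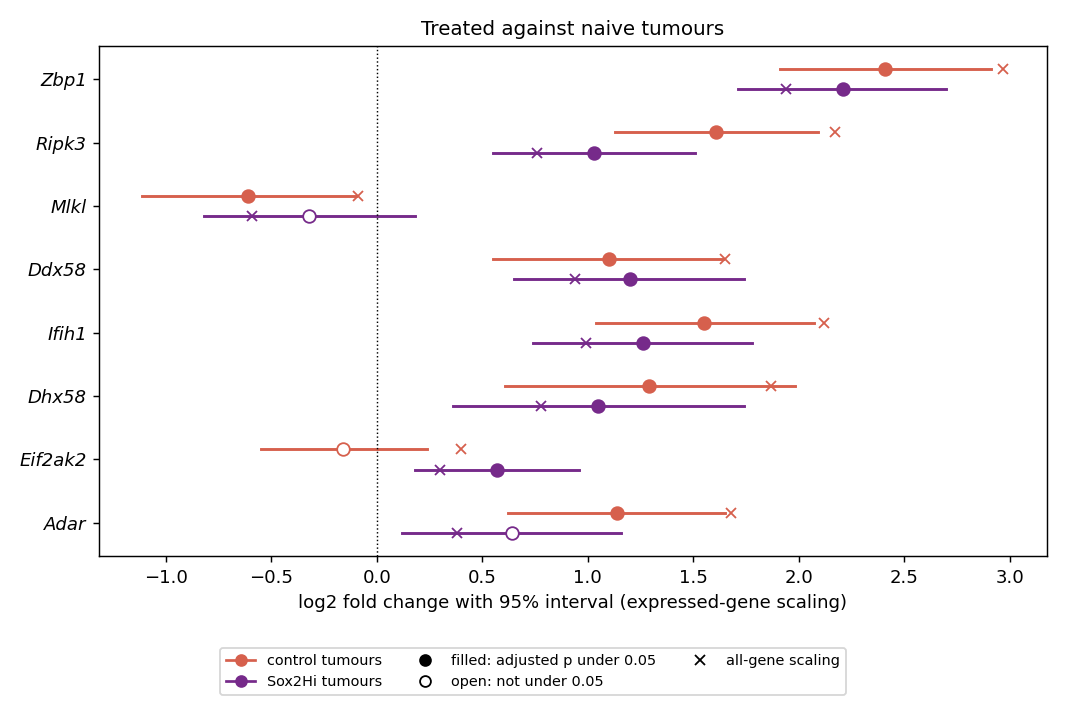
Log2 fold change of treated against naive tumours (horizontal axis) for the 8 genes in control and Sox2Hi grafts, with 95% intervals from the edgeR fit under expressed-gene scaling and crosses for all-gene scaling. Zbp1 lies furthest to the right in both grafts at 2.41 and 2.21, Mlkl lies left of 0 at -0.61 and -0.32, and the crosses sit to the right of the control points and to the left of the Sox2Hi points.

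Some markers of the sorted cells and of other cells also passed the test for treatment. Over all genes 24.1% rose and 33.1% fell in control tumours, and 15.0% rose and 6.57% fell in Sox2Hi tumours. The counts of macrophage and dendritic markers and of keratinocyte markers given below were near these shares. In control tumours 9 of 10 neutrophil markers rose, and their summed level ran from 12200 to 20000 CPM in naive and 38200 to 39300 in treated libraries. It ran from 11000 to 16000 in Sox2Hi naive and 20400 to 20500 in Sox2Hi treated, where 5 of 10 rose. Of 9 macrophage and dendritic markers tested, 3 rose in control tumours and 1 in Sox2Hi tumours, with sums of 7570 to 11400, 18100 to 19200, 7590 to 10900 and 10200 to 24500 CPM in naive control, treated control, naive Sox2Hi and treated Sox2Hi libraries. Of 6 T and NK markers tested, 4 and 2 rose, with sums of 56.1 to 93.6, 129 to 447, 39.1 to 131 and 164 to 270 CPM. Of 7 fibroblast and endothelial markers tested, 6 and 4 fell, with sums of 324 to 844, 111 to 134, 508 to 712 and 137 to 360 CPM. Keratinocyte markers fell in 3 and 1 of 9, mast cell markers in 2 and 0 of 2, and none of 4 B and plasma cell markers passed in either direction. The part of these cells in the changes of the 8 genes was not tested.

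Between the grafts in naive tumours only Eif2ak2 passed, lower in Sox2Hi by -0.55 on the log2 scale (SE 0.159, edgeR adjusted p 0.0426), so 1 of 8 genes passed, against 14.0% of all genes in either direction and 11.9% lower. That call was kept under 3 of the 11 alternatives, among them both fits with a replicate block (-0.54 and -0.53, edgeR adjusted p 0.0319 and 0.0354). It was lost under all-gene scaling (-0.16, edgeR adjusted p 0.472), where 1.87% of all genes passed, 1.66% higher and 0.209% lower. It was also lost without any 1 library other than control naive replicate 3, with values from -0.61 to -0.29, the smallest without control naive replicate 2 (edgeR adjusted p 0.186). Zbp1 was lower in all 3 Sox2Hi naive than in all 3 control naive libraries, at 53.5 ± 10 against 75.8 ± 20 CPM (SD, n = 3 each), but did not pass (-0.50, SE 0.205, edgeR adjusted p 0.14). With a replicate block Zbp1 was at -0.50 by title and -0.49 by description number (edgeR adjusted p 0.0645 and 0.0724). Groups without overlap were seen in 2 of the 8 genes, beside 32.5% of all genes.

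In treated tumours none of the 8 genes passed between the grafts (edgeR adjusted p under 0.05), where 20.9% of all genes did, 15.0% higher and 5.87% lower in Sox2Hi. At an unadjusted p under 0.05 there were 2, Zbp1 and Ifih1. Zbp1 was at 247 ± 21 CPM in Sox2Hi treated and 403 ± 57 in control treated (SD, n = 2 each), a log2 difference of -0.71 (SE 0.249, edgeR adjusted p 0.0677). Ifih1 was at 83.0 ± 4.0 against 137 ± 18 CPM (SD, n = 2 each), a difference of -0.72 (SE 0.262, edgeR adjusted p 0.0733). Both passed under all-gene scaling (-1.15 and -1.17), with DESeq2 (-0.87 and -0.89, adjusted p 0.014 and 0.0167) and without control naive replicate 2 (-0.73 and -0.75). With a replicate block by title number both passed too (-0.72 and -0.73, edgeR adjusted p 0.0271 and 0.0352). By description number neither did (-0.51 and -0.50, edgeR adjusted p 0.118 and 0.0916). Under all-gene scaling Ripk3 (-0.84) and Adar (-0.85) passed too, which made 4 of 8 lower where 13.7% of all genes passed, 4.18% higher and 9.57% lower. The expressed genes had a median of -0.41 under that scaling. Without Sox2Hi treated replicate 2, Ripk3 passed at -0.94 (edgeR adjusted p 0.0449). The libraries did not overlap in 6 of the 8 genes, lower in Sox2Hi for Zbp1, Ripk3, Ifih1, Dhx58 and Adar and higher for Eif2ak2, beside 60.6% of all genes. Of the 10 neutrophil markers, 5 were also lower in Sox2Hi treated than in control treated, where 5.87% of all genes were lower. The part of that difference in the values of Zbp1 and Ifih1 was not tested.

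The test of whether the response to treatment differed between the grafts called none of the 8 genes, where 19.8% of all genes were called, 16.9% higher and 2.84% lower (edgeR adjusted p under 0.05), and 1 at an unadjusted p under 0.05. That 1 was Eif2ak2, at 0.73 (SE 0.251, edgeR adjusted p 0.0672), whose sign turned to -0.10 under all-gene scaling. With a replicate block Eif2ak2 was called, at 0.72 by title number (edgeR adjusted p 0.0487) and 0.80 by description number (edgeR adjusted p 0.0373). Under all-gene scaling 4 were called, all with a smaller response in Sox2Hi tumours: Zbp1 (-1.03), Ripk3 (-1.41), Ifih1 (-1.13) and Adar (-1.31), where 27.5% of all genes were called, 11.3% higher and 16.2% lower. With expressed-gene scaling these 4 stood at -0.20, -0.59, -0.30 and -0.50. With the silent-gene rate subtracted, Adar was called at -2.02 (edgeR adjusted p 0.0419). Without Sox2Hi treated replicate 2, Ripk3 was called at -1.21 (edgeR adjusted p 0.0212), and without control naive replicate 3, Eif2ak2 was called at 0.83 (edgeR adjusted p 0.0393). The median over the 8 was -0.22, and -1.06 under all-gene scaling. That scaling shifted the 11270 expressed genes by a median of -0.82, to a median of -0.79. Over all 29648 genes of that scaling the median was 0.22.

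**Figure D4:**
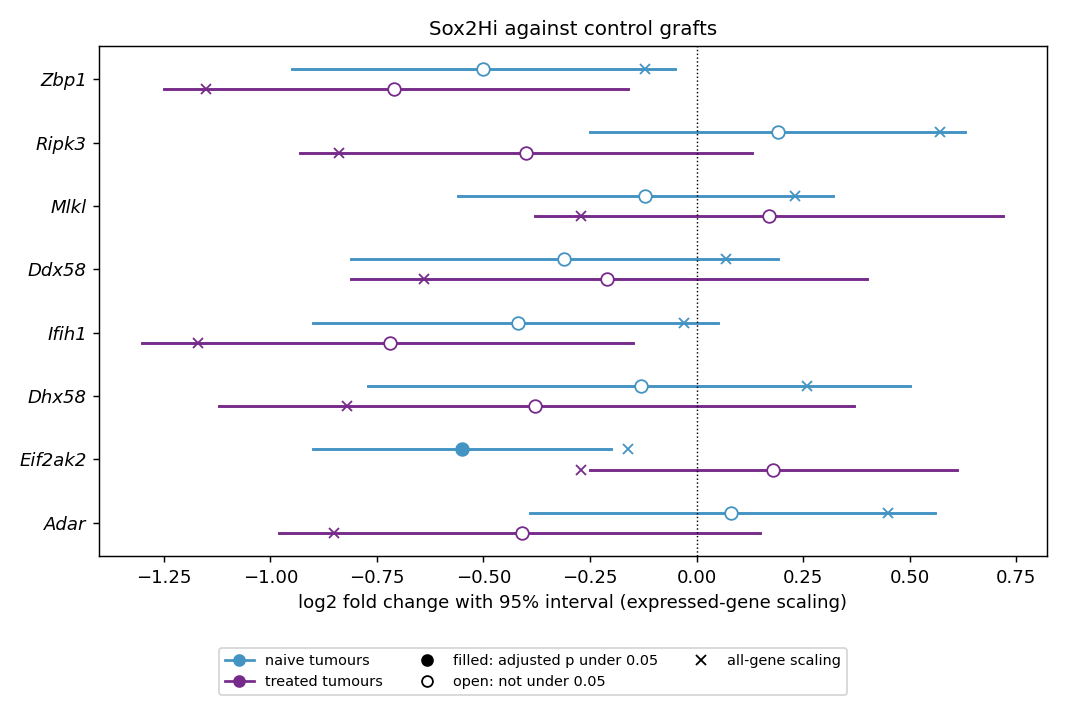
Log2 fold change of Sox2Hi against control grafts (horizontal axis) for the 8 genes in naive and treated tumours, with 95% intervals from the edgeR fit under expressed-gene scaling, filled points for an adjusted p under 0.05 and crosses for all-gene scaling. Only Eif2ak2 in naive tumours is filled, at -0.55, and in treated tumours Zbp1 and Ifih1 lie at -0.71 and -0.72, with crosses at -1.15 and -1.17.

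Per kb of exon, Zbp1 was the most abundant of the 8 in control naive (21.5 CPM per kb), with Mlkl (19.1) overlapping it, followed by Eif2ak2 (10.2), then Ripk3 (6.09), Ifih1 (5.72) and Ddx58 (5.22), which were not separated by their spread, and then Dhx58 (1.49) and Adar (0.659). In control treated Zbp1 reached 114 CPM per kb and stood clear of the rest, the next 5, from Ripk3 (18.6) down to Eif2ak2 (9.14), each overlapped the neighbour in the order, and Dhx58 (3.64) and Adar (1.45) stayed lowest. In Sox2Hi naive Mlkl (17.6) and Zbp1 (15.2) were not separated. In Sox2Hi treated Zbp1 was at 70.0 CPM per kb, with Ripk3 and Mlkl both at 14.1. Adar was the lowest of the 8 in each group, at 0.698 in Sox2Hi naive and 1.09 in Sox2Hi treated.

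The genes whose log2(CPM + 1) followed each of the 8 most closely were ranked by Pearson r over the 10 libraries, which share the same groups and scaling. For Zbp1 they were Irgm1 (0.998) and Il18bp (0.998), an interferon-induced GTPase and the binding protein that neutralises interleukin-18, and Gbp9 (0.997), a guanylate-binding protein. For Ifih1 they were Epsti1 (0.989), Herc6 (0.989) and Tnrc6b (0.988), and for Ddx58 Prr5l (0.988), Irf9 (0.985) and Cdc42ep2 (0.983). Irf9 is a subunit of the factor that binds the interferon-stimulated response element. For Adar they were Trim25 (0.983), the ubiquitin ligase that activates RIG-I, Grb2 (0.982) and Irf7 (0.98). For Ripk3 they were Zc3h7a (0.991), Pik3c2a (0.987) and Sod2 (0.987), and for Dhx58 Cyth1 (0.984), Herc1 (0.983) and Coq2 (0.982). Mlkl was followed by Nsdhl (0.974), Pxdn (0.968) and Mastl (0.959), and Eif2ak2 by Ovgp1 (0.95), Zmat1 (0.949) and Pikfyve (0.947). Among the 8 genes, r was 0.981 between Zbp1 and Ifih1, 0.519 between Zbp1 and Eif2ak2 and -0.729 between Zbp1 and Mlkl.

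Most of the signalling genes around the sensors that were tested rose with treatment in control tumours. Of 19 tested genes of RNA sensor signalling, 13 rose and none fell in control tumours (median 0.71 on the log2 scale, beside -0.18 over all genes), and 9 rose and none fell in Sox2Hi tumours (median 0.54, beside 0.09). Over all genes 24.1% rose and 33.1% fell in control tumours, and 15.0% rose and 6.57% fell in Sox2Hi tumours. The 9 became fewer without Sox2Hi treated replicate 2, which left 1 library in that group. Under all-gene scaling 6 of 22 rose in Sox2Hi tumours, where 1.79% of all genes rose and 1.82% fell. Ddx60, a helicase linked to RIG-I-like sensing, went from 42.5 ± 9.6 to 182 ± 58 CPM in control tumours (SD, n = 3 and 2; 2.10, SE 0.264, edgeR adjusted p 0.000234) and rose by 1.62 in Sox2Hi tumours (edgeR adjusted p 0.00388). Irf7, the transcription factor that amplifies type I interferon, rose by 1.92 and 1.33. Tank, a scaffold of the kinase TBK1, rose by 1.77 in control tumours and Traf3, an adaptor below MAVS, by 1.29 in Sox2Hi tumours. In treated tumours 2 of the 19 were lower in Sox2Hi, Tbk1 (-0.73) and its adaptor Azi2 (-0.63), where 5.87% of all genes were lower. Under all-gene scaling 10 of 22 were lower, where 9.57% of all genes were and the expressed genes had a median of -0.41. The 2 became 0 without control treated replicate 2 or Sox2Hi treated replicate 1, and 1 without control naive replicate 1 or either of Sox2Hi naive replicates 1 and 2. In the interaction under all-gene scaling 17 of 22 were lower, where 16.2% of all genes were and the expressed genes had a median of -0.79. With expressed-gene scaling 1 of 19 was called, the phosphatase subunit gene Ppp1ca (-0.73, edgeR adjusted p 0.0482), where 2.84% of all genes were lower. That count was 3 without control naive replicate 2 or Sox2Hi treated replicate 2, and 0 without control naive replicate 1, control treated replicate 1, Sox2Hi treated replicate 1 or any Sox2Hi naive library.

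Of 19 tested genes of necroptosis signalling, 11 rose and 2 fell in control tumours (median 0.82; 13 and 0 of 20 under all-gene scaling) and 6 rose and none fell in Sox2Hi tumours (median 0.36), where under all-gene scaling none of 20 passed. The shares over all genes were 24.1% higher and 33.1% lower in control tumours and 15.0% higher and 6.57% lower in Sox2Hi tumours. Under all-gene scaling they were 18.7% higher and 15.3% lower in control tumours and 1.79% higher and 1.82% lower in Sox2Hi tumours. In Sox2Hi tumours the count called was 0 without treated replicate 2, 3 without treated replicate 1 and 1 without naive replicate 3. Among the genes with the largest change in control tumours, Cflar, a regulator of caspase-8, rose by 1.68, from 128 ± 5.1 to 409 ± 0.72 CPM (SD, n = 3 and 2; SE 0.162, edgeR adjusted p 7.03e-05), and Tnfaip3, the ubiquitin-editing enzyme A20, rose by 1.57. Tnf, a ligand that can start necroptosis, rose by 1.68. In Sox2Hi tumours the largest were Birc3 (0.90) and Birc2 (0.81), ubiquitin ligases of the TNF receptor complex, and Casp8 (0.81), the protease that cleaves RIPK3. Between the treated grafts 4 were lower in Sox2Hi, among them Tnf (-1.51), Cflar (-0.80) and Tnfaip3 (-0.64), where 5.87% of all genes were lower. Under all-gene scaling 7 of 20 were lower, where 9.57% of all genes were and the expressed genes had a median of -0.41. With expressed-gene scaling the count was 0 without Sox2Hi treated replicate 1 and 2 without control naive replicate 1, either control treated library, Sox2Hi naive replicate 2 or Sox2Hi treated replicate 2. The same 3 had a smaller response to treatment in Sox2Hi tumours by the interaction test, Tnf by -1.76 (SE 0.407, edgeR adjusted p 0.0102), Cflar by -1.07 (SE 0.232, edgeR adjusted p 0.00723) and Tnfaip3 by -0.89 (SE 0.243, edgeR adjusted p 0.0247). Under all-gene scaling 13 of 20 were called lower in the interaction, where 16.2% of all genes were and the expressed genes had a median of -0.79. With expressed-gene scaling Tnf, Cflar and Tnfaip3 were the 3 of 19 called, where 2.84% of all genes were called lower. The count called was 6 without control naive replicate 2, 8 without control treated replicate 2 and 5 without Sox2Hi treated replicate 2. Tnf averaged 64.8 ± 15 CPM in naive (SD, n = 3) and 208 ± 31 in treated control tumours (SD, n = 2), and 77.2 ± 28 in naive (SD, n = 3) and 73.0 ± 9.4 in treated Sox2Hi tumours (SD, n = 2). Its naive and treated Sox2Hi groups thus lay close together.

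Of 17 tested genes of DNA and endosomal sensing, 10 rose and 3 fell in control tumours (median 0.96). Under all-gene scaling 11 of 19 rose and 1 fell there, where 18.7% of all genes rose and 15.3% fell. In Sox2Hi tumours 5 of 17 rose and none fell (median 0.48). The shares of all genes were 24.1% and 33.1% in control and 15.0% and 6.57% in Sox2Hi tumours. Under all-gene scaling 1.79% of all genes rose in Sox2Hi tumours. The 5 became 1 without Sox2Hi treated replicate 2, 3 without Sox2Hi naive replicate 2 or 3, and 3 under all-gene scaling. Samhd1, which depletes deoxynucleotides, rose by 1.90 and 1.55, the DNA-binding protein Ifi204 by 1.87 and 1.63, and the DNA exonuclease Trex1 by 1.83 and 1.72. Ifi204 was lower in Sox2Hi in both naive (-0.71) and treated tumours (-0.95), the former not under all-gene scaling (-0.35, edgeR adjusted p 0.228). Sting1, the adaptor of cytosolic DNA sensing, was higher in Sox2Hi naive (0.65), and Tlr3, the endosomal receptor of double-stranded RNA, was higher in Sox2Hi treated (1.11) and 0.66 under all-gene scaling (edgeR adjusted p 0.063). Ifi204 and Sting1 were the 2 of 17 genes called between naive grafts, where 14.0% of all genes were called, and none was called without control naive replicate 1 or without Sox2Hi naive replicate 2 or 3, and 1 without control naive replicate 2 or Sox2Hi treated replicate 2. Ifi204 and Tlr3 were the 2 of 17 called between treated grafts, where 20.9% of all genes were called, and none was called without control treated replicate 2 or Sox2Hi treated replicate 1, and 1 without control treated replicate 1. Under all-gene scaling 6 of 19 were lower in Sox2Hi treated and none was higher. Of all genes 9.57% were lower and 4.18% higher there, and the expressed genes had a median of -0.41. In the interaction under all-gene scaling 10 of 19 were lower and none was higher. Of all genes 16.2% were lower and 11.3% higher there, and the expressed genes had a median of -0.79. With expressed-gene scaling 1 of 17 was called, Tlr3 (0.90, edgeR adjusted p 0.0482), where 19.8% of all genes were called, 16.9% higher. That call count was 0 without control naive replicate 1, control treated replicate 1, Sox2Hi naive replicate 1 or 2 or Sox2Hi treated replicate 1, and 2 without control naive replicate 2.

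Other proteins that bind double-stranded RNA and the eIF2 alpha kinases showed no rise under expressed-gene scaling. Of 15 tested, none rose and 9 fell in control tumours (median -0.76), and none rose and 3 fell in Sox2Hi tumours (median -0.26), where 33.1% and 6.57% of all genes fell. With 1 library left out the count called was 6 to 9 in control tumours. In Sox2Hi tumours it was 1 without Sox2Hi naive replicate 3 or Sox2Hi treated replicate 2 and 5 without either control treated library. The direction in control tumours depended on the scaling, since under all-gene scaling 1 of 17 rose and none fell. Of all genes 18.7% rose and 15.3% fell there. The microRNA processing genes Drosha (-1.26) and Tarbp2 (-1.04) and the ADAR relative Adarb2 (-1.12) had the largest falls, and none of these 3 passed under all-gene scaling. The silent-gene rate would account for 21.6% to 38.1% of the reads of Drosha, 17.2% to 36.9% of Tarbp2 and 73.7% to 95.5% of Adarb2 across the groups. In Sox2Hi tumours the genes that fell included Ilf2 (-0.71) and Eif2s1 (-0.57), which encodes eIF2 alpha itself. Drosha (1.16), Adarb2 (1.06) and Tarbp2 (1.04) were among 4 of 15 genes higher in Sox2Hi treated than in control treated, where 15.0% of all genes were higher. Under all-gene scaling none of 17 was, where 4.18% of all genes were. The 4 became 0 without either control treated library or Sox2Hi treated replicate 1, and 1 without Sox2Hi treated replicate 2. By the interaction test Adarb2 (1.55), Dicer1 (1.37) and Drosha (1.19) differed between the grafts, 3 of 15 genes, where 16.9% of all genes were called higher. None of these 3 passed under all-gene scaling (0.72, 0.55 and 0.37). There 1 of 17 was higher and 5 were lower, where 11.3% of all genes were higher and 16.2% lower. With expressed-gene scaling the count of 3 fell without control treated replicate 2, which left 1 library in that group.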

How the data were processed

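The authors deposited 1 table of estimated counts per gene for 10 libraries, made with kallisto 0.44.0 against mm10 per the submitters' processing notes. RNA was extracted with a microprep column and libraries were made with a low-input kit, per the labels' protocols. Strandedness is not given in the sources used here. The counts are whole numbers. The table's 96 ERCC and transgene sequences stayed out of library sizes and tests. GENCODE M21 (GRCm38) gave symbols and coordinates. The 8 genes, the lists around them and the choice of scaling were made with earlier results of these data known.

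All 10 libraries entered 1 edgeR 4.0.16 model (R 4.3.3, quasi-likelihood F-test) with a term per group, on the 11274 genes averaging 5 CPM or more, which also set the TMM factors. CPM values are scaled by these factors. Genes were called below 0.05 after Benjamini-Hochberg adjustment over all genes tested. Standard errors are the log2 fold change over the square root of F. The common biological coefficient of variation was 0.212. Genes named from the lists are up to 3 per list and contrast with the largest change among those called, with 1 gene named by this rule not reported here, and the 3 nearest genes by Pearson r leave out Gm and Rik names.

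Alternatives were all-gene scaling (29648 genes), no low-count filter, RLE factors, library totals only, DESeq2 1.42.0, limma-voom 3.58.1 with quality weights, subtraction of the silent-gene rate, replicate blocks by title and by description number, only the groups compared and each library left out. A Ddx3y term and the ratios within libraries were added after the data were seen. In the pairing check, deviations from the group means correlated at 0.273, 0.325 and 0.474 for the 3 naive pairs with 1 title number. Numbers were taken to pair those libraries, which rests on this correlation, as the meaning of a number is not in the labels. The reported fit had no replicate block, so its comparison of the naive grafts is unpaired and the blocked values are alternatives. Replicates of a group differed beyond sampling noise (smallest chi-square per degree of freedom 12.5).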

Additional observations from a re-analysis of the deposited data

How the results depend on the processing

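The rises of Zbp1 in both grafts and of Ripk3, Ifih1, Dhx58 and Adar in control tumours kept their call under all 11 alternatives and without each library in turn. The number of the 8 genes called was 6 to 7 for treatment in control tumours under every setting. For treatment in Sox2Hi tumours it was 3 under all-gene scaling, 2 with no low-count filter, 4 to 7 under the other 9 alternatives (7 with the description-number block and with only the groups compared) and 1 to 6 with a library left out. Between naive grafts it was 0 under all-gene scaling, no low-count filter, RLE factors, library totals only, DESeq2, background subtraction, only the groups compared and the Ddx3y term, and 0 to 1 with a library left out. Between treated grafts it was 4 under all-gene scaling and with no low-count filter, 1 with RLE factors, 2 with DESeq2 and 0 to 2 with a library left out. For the interaction it was 4 under all-gene scaling, 5 with no low-count filter, 1 with library totals only, 1 with background subtraction (Adar) and 0 to 1 with a library left out.

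With a replicate block the count was 2 between treated grafts by title number (Zbp1 -0.72 and Ifih1 -0.73) and 1 in the interaction by either number (Eif2ak2 0.72 and 0.80). Same-numbered treated libraries by title correlated at -0.0952. Those of a naive and a treated group correlated at 0.153 and 0.165 within the control graft and from -0.28 to 0.246 over all such pairs, so outside the naive groups the libraries were taken to share only a number. The block also took away the calls of Mlkl for treatment in control tumours (-0.50 and -0.63) and, by title, of Eif2ak2 in Sox2Hi tumours (0.49), and added Adar there by description (0.76).

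Some values changed sign, none of them called in both directions. For treatment in control tumours Eif2ak2 went to 0.40 under all-gene scaling and 0.52 with no low-count filter, where Mlkl was 0.00. Leaving out a library gave -0.26 to 0.08 for Eif2ak2. Between naive grafts all-gene scaling gave Mlkl 0.23, Ddx58 0.07 and Dhx58 0.26, and no low-count filter gave Mlkl 0.31, Ddx58 0.17, Ifih1 0.08 and Dhx58 0.38. Dhx58 was 0.04 with limma-voom and 0.05 with background subtraction, and leaving out a library gave it -0.37 to 0.31, Mlkl -0.17 to 0.08 and Adar -0.03 to 0.28. Between treated grafts Mlkl and Eif2ak2 were both -0.27 under all-gene scaling and -0.38 with no low-count filter, and Ddx58 was 0.11 with library totals only. Leaving out a library gave Mlkl -0.26 to 0.45, Ddx58 -0.66 to 0.11 and Eif2ak2 -0.04 to 0.18. In the interaction all-gene scaling gave Mlkl -0.50, Ddx58 -0.71 and Eif2ak2 -0.10, and no low-count filter gave -0.69, -0.93 and -0.32. Ddx58 was -0.14 with RLE factors and with DESeq2, and Zbp1 was 0.00 with library totals only. Leaving out a library gave Mlkl -0.22 to 0.49, Ddx58 -0.43 to 0.33 and Dhx58 -0.83 to 0.07. The cause was not tested. Of the other values for single genes, 34 gained a call and 68 lost one in the same direction. The treated groups hold 2 libraries each, which limits the precision of every comparison that includes them, and an arm left with 1 library is assumed to vary like the other groups.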
